A study of Mus musculus with 2 samples.

Results

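The 10 genes described here are markers of the surface ectoderm and of simple epithelia. They are the keratin genes Krt5, Krt8, Krt14, Krt15, Krt18 and Krt19 and the genes Trp63, Perp, Epcam and Esrp1. They were chosen by name from 43346 mouse genes in each table, with their levels and the difference between the libraries already known, so their values are a description and carry no test. All 10 were found, and 9 had a mean count of 10 or more in the libraries. The study measured total RNA of dissected mouse neural tube at 13.5 days of embryonic development. Its 2 libraries, biological replicates 2 and 1, form a single group of strain B6NCrl with male and female embryos pooled. Each library started from 10 ng of RNA and held spike-in RNA, and the labels name no mutation and no treatment. The labels give the libraries separate biosamples and the same donor record, so their spread is that between these samples and may be partly technical.

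Keratins are the intermediate filament proteins of epithelial cells, and each filament pairs a type I with a type II keratin. Krt8 (type II) with Krt18 or Krt19 (type I) marks simple, single-layered epithelia, and Krt5 (type II) with Krt14 or Krt15 (type I) marks the basal layer of stratified epithelia such as the epidermis. The surface ectoderm separates from the neural tube when the tube closes and goes on to form the epidermis, in which the transcription factor p63, encoded by Trp63, directs the basal programme.

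Trp63 has an upstream start, which gives TA proteins with the full transactivation domain, and an internal start, which gives the deltaN proteins of basal epidermis. The coding stretches on either side of the point where both forms become identical are shown because these bases tell the forms apart. Capitals mark the 18 bases from which both transcripts (GENCODE M21, chromosome 16) run on identically.

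Trp63-208, upstream start, coding bases 282 to 341: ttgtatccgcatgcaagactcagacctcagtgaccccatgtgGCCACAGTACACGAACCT
Trp63-201, internal start, coding bases 1 to 59: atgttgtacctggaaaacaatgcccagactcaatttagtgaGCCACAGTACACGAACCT

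The upstream form thus had 323 coding bases of its own and the internal form 41, with start codons 117770 bases apart in the genome.

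RefSeq promoter windows (GRCm38.p6) matched 5 of the 10 genes, Krt5, Krt8, Krt14, Krt18 and Epcam. The Krt14 window lay before the start of the noncoding transcript Krt14-202 inside the gene, and it is not shown. In the Krt8 window, the last 140 of the 250 bases upstream of the RefSeq start lay within the longer GENCODE transcript, so it is not shown either. The other 3 are given on the gene's strand, up to the earlier start of either annotation. Whether these stretches bear on the difference between the libraries was not tested. Capitals mark matches to the motifs searched.

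Krt5, chr15:101712906-101713155, minus strand: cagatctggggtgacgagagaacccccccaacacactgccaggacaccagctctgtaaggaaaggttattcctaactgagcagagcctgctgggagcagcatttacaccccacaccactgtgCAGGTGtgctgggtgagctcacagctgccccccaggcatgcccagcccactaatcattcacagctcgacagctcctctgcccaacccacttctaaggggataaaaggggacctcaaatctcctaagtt
Krt18, chr15:102027966-102028179, plus strand: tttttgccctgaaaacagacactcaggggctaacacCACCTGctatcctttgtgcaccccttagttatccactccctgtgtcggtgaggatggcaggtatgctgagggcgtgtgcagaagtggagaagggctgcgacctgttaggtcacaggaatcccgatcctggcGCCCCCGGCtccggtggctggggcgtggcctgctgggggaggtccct
Epcam, chr17:87635729-87635978, plus strand: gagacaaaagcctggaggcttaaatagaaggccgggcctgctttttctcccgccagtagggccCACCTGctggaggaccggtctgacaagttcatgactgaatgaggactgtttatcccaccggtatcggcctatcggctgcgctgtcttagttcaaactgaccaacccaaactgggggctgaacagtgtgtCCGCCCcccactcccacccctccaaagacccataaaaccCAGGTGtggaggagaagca

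The motifs were searched on both strands of the 250 bases upstream of each RefSeq start, and no printed matches overlapped. CACCTG, the E-box that Zeb and Snai repressors can bind, was in the windows of Krt5, Krt8, Krt18 and Epcam and in 17.2% of all 32851 windows. The Krt8 match began 111 bases before the RefSeq start and so lay inside the longer GENCODE transcript, not upstream of it. The AP-2 motif GCCNNNGGC was in the Krt18 window and in 13.7% of all windows. The GC box GGGCGG was in the Epcam window and in 32.7% of all windows. The exact TATA string TATAAA was in none of the 5 windows and in 12.4% of all. Variants of it were not searched, and the printed Krt5 and Epcam stretches hold the similar string ATAAAA. Absence of the exact string therefore does not show that these promoters lack a TATA element. A match describes letters only and is no evidence of binding.

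Replicate 2 held 22311849 estimated reads, 21084234 of them on mouse genes. Replicate 1 was deeper, with 34125110 reads and 32151162 on mouse genes. The 10 genes took 756 reads in replicate 2 and 452 in replicate 1, so the shallower library had more reads of them. The labelled tissue carried its own markers in both libraries: the neuronal tubulin gene Tubb3 was at 1175 TPM in replicate 2 and 1245 TPM in replicate 1, and the radial glial gene Fabp7 at 1934 and 2061 TPM. TPM, the transcript level per length scaled to a common total, is the level used throughout. In tissue RNA, fewer cells of a type and less RNA per cell cannot be told apart.

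Levels of the 10 genes were low in both libraries and mostly higher in replicate 2. Their TPM summed to 31.1 in replicate 2 and 11.7 in replicate 1, and the keratins alone to 20.5 and 5.29. At a detection level of 1 TPM, 8 of 10 were detected in replicate 2 and 4 in replicate 1; the 4 were Krt14, Krt18, Epcam and Perp, and all mouse genes were detected in both libraries in 34.7% of cases. At 0.5 TPM, 8 of 10 were detected in both libraries, and at 2 TPM only Perp. Ratios below divide the count in replicate 2 by that in replicate 1 after TMM scaling, a trimmed-mean correction for depth and composition. With a mean count of 10 or more, 7 of 9 genes were at least 2-fold higher in replicate 2, where 1.96% of 17428 genes were, and none was 2-fold lower, where 1.43% were. At 1.5-fold the count was 8 of 9, beside 5.26% of all genes, and at 4-fold it was 5 of 9, beside 0.367%; Krt15 and Krt5, at 4.01-fold and 4.03-fold, lay just past the 4-fold line. Among the 3856 genes with mean counts between 21 and 160.5, the range of the 9, 3.6% were 2-fold higher and 2.67% 2-fold lower. Nothing is read from these counts, since the genes were chosen with this ratio known. The median log2 ratio of the 9 was 2.00, and that of all 17428 genes was 0.00013.

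**Figure D1:**
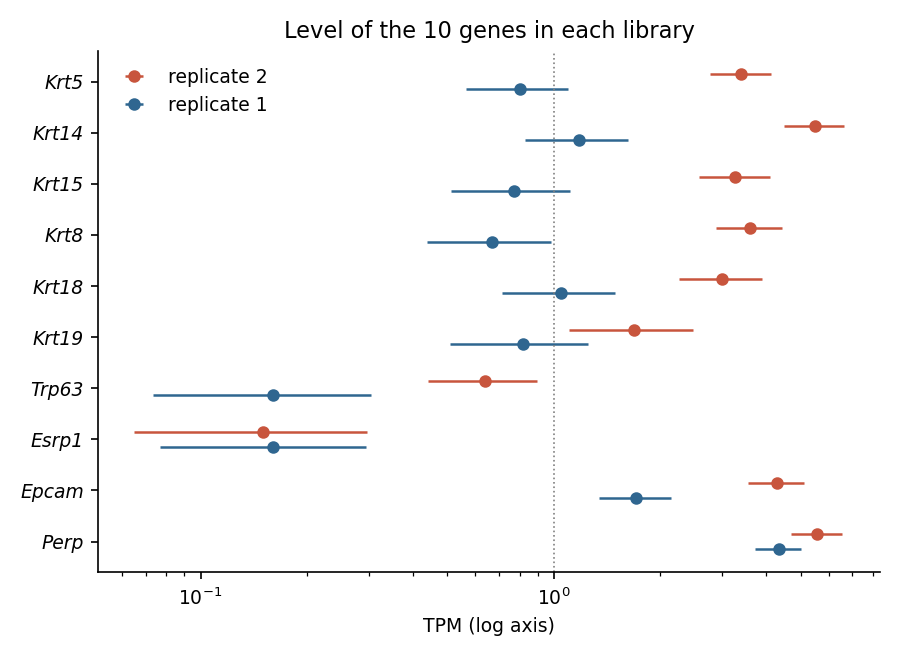
Level of each of the 10 genes in TPM (log axis) in replicate 2 and replicate 1; bars are 95% exact Poisson intervals of the count, scaled to TPM, and the dotted line is at 1 TPM. Krt5, Krt14, Krt15, Krt8, Krt18, Trp63 and Epcam have intervals that do not overlap between the libraries, while those of Esrp1 nearly coincide.

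Basal keratins were close to 4-fold higher in replicate 2, all 3 alike. Krt5, the type II keratin of basal cells (ENSMUSG00000061527.6, chromosome 15, 101707070 to 101712898, GRCm38), had 3.4 TPM in replicate 2 and 0.8 TPM in replicate 1, a mean of 2.1 ± 1.84 TPM (SD, n = 2). These levels rested on 102 reads (95% Poisson interval 83.2 to 124) and 38 reads (26.9 to 52.2). Its ratio was 4.03-fold, with an exact binomial interval of 2.78 to 6.07. All intervals cover counting error only.

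Krt14, the type I partner of Krt5 (ENSMUSG00000045545.8, chromosome 11, 100203162 to 100207548), had 5.49 TPM in replicate 2 and 1.18 TPM in replicate 1, with 3.34 ± 3.05 TPM on average (SD, n = 2). The counts were 105 and 37 reads, a ratio of 4.26-fold (2.93 to 6.43). Krt15, another type I keratin of basal cells (ENSMUSG00000054146.8, chromosome 11, 100131758 to 100135928), had 3.27 TPM in replicate 2 and 0.77 TPM in replicate 1, with 75 and 28 reads and a mean of 2.02 ± 1.77 TPM (SD, n = 2). Its ratio of 4.01-fold (2.6 to 6.5) was within the counting interval of the other 2 basal keratins. The balance of partners was similar in both libraries. Krt5 over Krt14 was 0.619 in replicate 2 and 0.678 in replicate 1 on the TPM scale, and Krt15 over Krt14 was 0.596 and 0.653.

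Simple-epithelial keratins had less similar ratios, but the counting intervals of all 3 overlapped. Krt8, the type II keratin of simple epithelia (ENSMUSG00000049382.9, chromosome 15, 101996698 to 102004482), had 3.6 TPM in replicate 2 and 0.67 TPM in replicate 1, from 88 and 26 reads. Its ratio of 5.06-fold (3.28 to 8.27) was the highest of the 6 keratins. Krt18, its usual type I partner (ENSMUSG00000023043.6, chromosome 15, 102028180 to 102032027), had 3 TPM in replicate 2 and 1.05 TPM in replicate 1, from 56 and 31 reads, a ratio of 2.72-fold (1.73 to 4.39). Krt8 over Krt18 was therefore 1.2 in replicate 2 and 0.638 in replicate 1, and the counting intervals of their ratios overlapped. Both genes lie side by side and head to head, with 23698 bases between their starts.

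Krt19, a type I keratin of simple epithelia and of some basal cells (ENSMUSG00000020911.10, chromosome 11, 100140810 to 100148665), differed least of the 6. It had 1.69 TPM in replicate 2 and 0.82 TPM in replicate 1, from 26 and 21 reads, a ratio of 1.87-fold (1.01 to 3.5). Per gene, SD over the libraries was 2.07 TPM for Krt8, 1.38 TPM for Krt18 and 0.615 TPM for Krt19 (n = 2 each).

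Reads of Krt14 and Krt19 did not all fall on the coding transcript. The coding transcript Krt14-201 took 54.2% of the gene's TPM in replicate 2 and 63.8% in replicate 1, and the shorter noncoding Krt14-202 took the rest. In reads, Krt14-201 had 68.2 and 27.2 and Krt14-202 had 36.8 and 9.85. For Krt19, the coding Krt19-201 took 46.7% in replicate 2 and 54.6% in replicate 1. Transcripts of Krt5, Krt8, Krt18, Perp and Epcam were not divided, since each had 1 transcript in the tables. Division of reads between transcripts that share exons is an estimate, and with so few reads these shares are coarse.

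Trp63 (ENSMUSG00000022510.10, chromosome 16, 25683763 to 25892102) was below 1 TPM in both libraries, with 0.64 TPM in replicate 2 and 0.16 TPM in replicate 1 (SD 0.339, n = 2). Its 33 and 9 reads gave a ratio of 5.34-fold, with a wide interval of 2.6 to 13.2. The TPM ratio was 4-fold instead, because the estimated effective length was 3601 bases in replicate 2 and 2418 in replicate 1, as reads were given to transcripts of other lengths. Of its 8 transcripts, 4 begin at each start. In replicate 2, 16.99 reads were given to the upstream start, all to Trp63-208, and 16.02 to the internal start. In replicate 1, all 9 reads went to the internal start, 4.55 of them to Trp63-205 and 4.45 to Trp63-204.

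By TPM, the upstream share of Trp63 was 35.2% in replicate 2 and 0% in replicate 1, and the internal share 64.8% and 100%. Posterior means, the authors' other estimate, gave the upstream start 40.5% in replicate 2 and 37.8% in replicate 1. The difference in start use between the libraries therefore rested on the estimate chosen, and 33 and 9 reads did not settle it. Among the p53 family, Trp53 was at 58 TPM in replicate 2 and 58.3 TPM in replicate 1, and Trp73 at 0.09 and 0.02 TPM, with 6 reads and 1 read.

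Esrp1, a splicing factor that sets epithelial exon choice (ENSMUSG00000040728.11, chromosome 4, 11331933 to 11386783), was the lowest of the 10 in replicate 2. It had 0.15 TPM in replicate 2 and 0.16 TPM in replicate 1, from 8 and 10 reads. Its count ratio was 1.23-fold with an interval of 0.415 to 3.41, and on the TPM scale its log2 ratio was -0.09, so a 2-fold difference in either direction was not detectable at this depth. Its paralog Esrp2 had 0.25 TPM in replicate 2 and 0.95 TPM in replicate 1, from 10.8 and 18.7 reads. That difference in TPM also followed the effective length, which was 3018 bases in replicate 2 and 872 in replicate 1.

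Membrane genes followed at higher levels. Epcam, an epithelial adhesion molecule (ENSMUSG00000045394.8, chromosome 17, 87635979 to 87651129), had 4.28 TPM in replicate 2 and 1.71 TPM in replicate 1, from 119 and 75 reads. Its mean was 3 ± 1.82 TPM (SD, n = 2) and its ratio 2.4-fold (1.78 to 3.25). Perp, a tetraspan protein of desmosomes and a target of p53 and p63 (ENSMUSG00000019851.7, chromosome 10, 18845020 to 18857073), had 5.58 TPM in replicate 2 and 4.34 TPM in replicate 1, from 144 and 177 reads. At 4.96 ± 0.877 TPM it was the most abundant of the 10 in both libraries, and its ratio was 1.23-fold (0.982 to 1.54). The counting intervals of Perp and Krt5 ratios did not overlap.

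**Figure D2:**
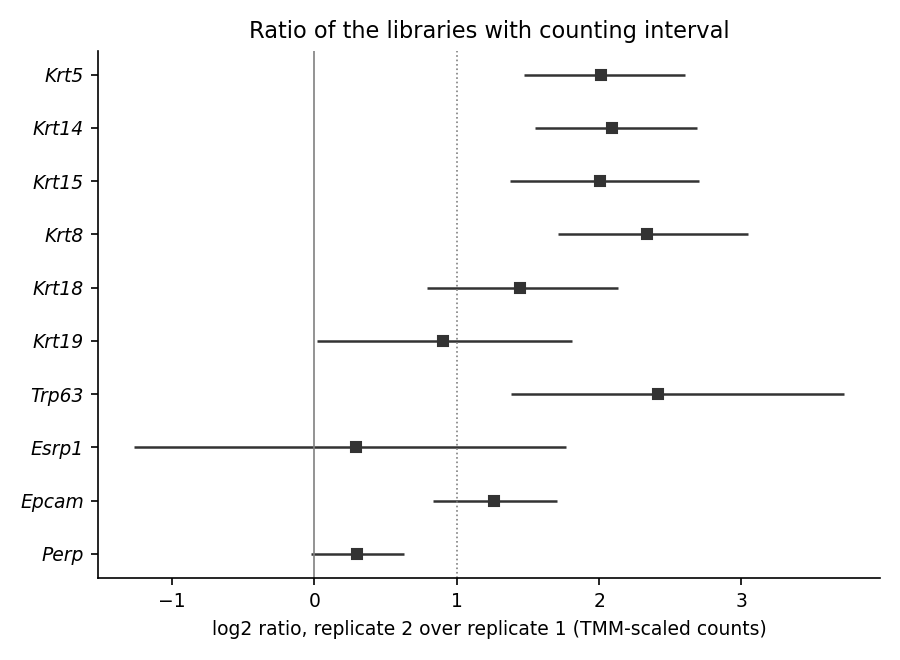
Log2 ratio of replicate 2 over replicate 1 for each of the 10 genes, from TMM-scaled counts; bars are 95% exact binomial intervals and cover counting error only, and the dotted line is at 2-fold. Krt5, Krt14, Krt15, Krt8 and Trp63 sit near 2 or above, Perp at 0.30 and Esrp1 at 0.29.

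The order of levels was not the same in the libraries. In replicate 2, Perp and Krt14 led, followed by Epcam, Krt8, Krt5, Krt15 and Krt18, and neighbours in this order had overlapping counting intervals down to Krt19. Trp63 and then Esrp1 lay below, each apart from the gene above. In replicate 1, Perp lay apart at the top, and the next 7 genes, from Epcam to Krt8, overlapped their neighbours. There Krt8 was the lowest of the 6 keratins. Reads were assigned to these genes with little uncertainty, the posterior SD being at most 0.19 reads, for Krt14 in replicate 2.

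All 54 keratin genes were then compared, 27 on chromosome 11 and 27 on chromosome 15. No read was given to 18 of them in either library. Of 13 with a mean count of 10 or more, 6 were at least 2-fold higher in replicate 2, beside 1.96% of all genes. Another 1 was at least 2-fold lower, beside 1.43%. Without the 6 keratins described above, 7 genes remained, of which 1 was higher and 1 lower, and the sum over those 48 keratins came to 19.9 and 20.8 TPM in replicates 2 and 1. Krt10, a type I keratin of differentiating epidermis, was the highest keratin of all, at 8.04 TPM in replicate 2 and 8.56 TPM in replicate 1, a ratio of 0.903-fold (0.763 to 1.07). Krt1, its type II partner, had 3.99 TPM in replicate 2 and 3.68 TPM in replicate 1, a ratio of 1.04-fold (0.829 to 1.3). Their intervals did not overlap those of Krt5 and Krt14. Which cells carried Krt10 and Krt1 cannot be told from tissue RNA, so their ratios need not be those of differentiating epidermis. On the TPM scale, Krt14 over Krt1 was 1.38 in replicate 2 and 0.321 in replicate 1.

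Among the other keratins, Krt222, a keratin-like gene, had 3.17 TPM in replicate 2 and 4.38 TPM in replicate 1. Krt17, a keratin of periderm and stressed epidermis, had 1.06 and 0.55 TPM, and its ratio of 1.84-fold had an interval of 0.948 to 3.66. Krt7, a type II keratin of simple epithelia, had 0.68 TPM in replicate 2 and 0.28 TPM in replicate 1, from 25 and 16 reads, a ratio of 2.34-fold (1.21 to 4.74). Krt28, a hair follicle keratin named after its values were seen, was the lower gene, with 1 read in replicate 2 and 23 in replicate 1, a ratio of 0.0967 (0.0016 to 0.405).

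**Figure D3:**
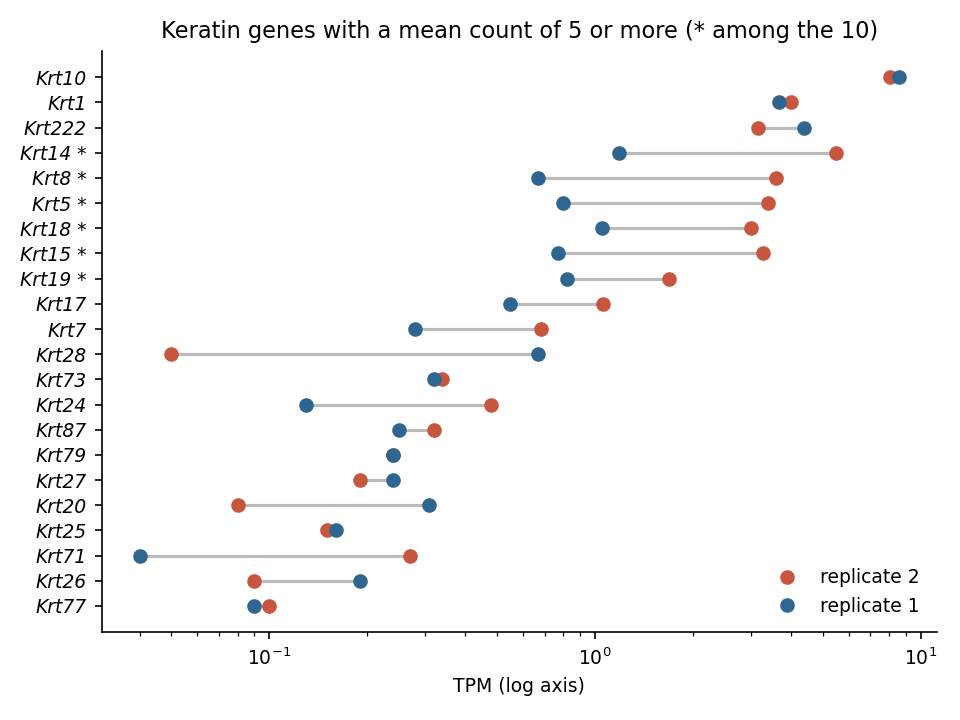
TPM (log axis) in replicate 2 and replicate 1 of each keratin gene whose mean count was at least 5, ordered by mean TPM; asterisks mark the 6 keratins among the 10 genes, and lines join the libraries. The asterisked genes lie to the right in replicate 2, while Krt10 and Krt1 lie close together in both.

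Other epidermal and epithelial genes were read from 6 lists of 72 genes in all. Of 54 with a mean count of 10 or more, 9 were at least 2-fold higher in replicate 2, beside 1.96% of all genes. None was 2-fold lower, beside 1.43%, and the median log2 ratio was 0.30. Among genes with mean counts between 21 and 160.5, 3.6% were 2-fold higher and 2.67% 2-fold lower. Several of the 9 had lower mean counts than that, such as Cldn7 and Grhl1 at 10. In replicate 2 the levels of the 72 genes came to 253 TPM in all, and in replicate 1 to 239 TPM.

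Genes of the outer epidermal layers had 1 of 5 at least 2-fold higher, beside 1.96% of all genes. Sfn, a 14-3-3 protein of differentiating keratinocytes, had 2.53 TPM in replicate 2 and 0.76 TPM in replicate 1, a ratio of 3.17-fold (1.97 to 5.32). Lor, which encodes the cornified envelope protein loricrin, had 3.41 TPM in replicate 2 and 3.63 TPM in replicate 1. Flg and Sprr1a, both late genes, and the keratin gene Krt6b had no reads in either library.

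Cell-cell junction genes had 5 of 14 at least 2-fold higher, beside 1.96% of all genes. Among them were the claudin genes Cldn3, Cldn4, Cldn6 and Cldn7, which encode tight junction proteins. Cldn7 had 1.34 TPM in replicate 2 and 0.25 TPM in replicate 1, from 15 and 5 reads, a ratio of 4.27-fold (1.57 to 16). Cldn3 had 1.8 and 0.61 TPM, a ratio of 2.8-fold (1.5 to 5.58). Cldn6 was 2.24-fold higher, from 18 and 12 reads. Cldn4, the lowest of the list, was 2.17-fold higher, from 16 and 11 reads, with an interval of 0.96 to 5.25 that includes no difference. The 3 most abundant genes of the list had counting intervals that include no difference. F11r had 11.5 TPM in replicate 2 and 11.1 TPM in replicate 1, Cgn 4.77 and 4.06 TPM and Cldn1 4.26 and 3.44 TPM. The E-cadherin gene Cdh1 was at 3.06 TPM in replicate 2 and 3.1 TPM in replicate 1.

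Desmosome genes, whose proteins anchor keratin filaments, had 1 of 8 at least 2-fold higher, beside 1.96% of all genes. Ppl, the periplakin gene, had 0.26 TPM in replicate 2 and 0.09 TPM in replicate 1, a ratio of 2.64-fold (1.3 to 5.76). Jup had 67.4 TPM in replicate 2 and 70.4 TPM in replicate 1; its product also sits in junctions outside epithelia. Pkp2 had 1.22 and 1.61 TPM, and Dsg3, the lowest, 0.03 and 0.08 TPM. Pkp3 had 1.2 TPM in replicate 2 and 0.29 TPM in replicate 1, from 16 and 12 reads, with estimated effective lengths of 930.4 and 1856 bases. Its count ratio, on a log2 scale 0.999 (-0.16 to 2.23), lay just under the 2-fold line. Hemidesmosome and basal adhesion genes, which fasten basal keratinocytes to the basement membrane, had 0 of 8 past 2-fold in either direction. Dst had 32.4 TPM in replicate 2 and 34.2 TPM in replicate 1, Itga6 19.2 and 20.2 TPM and Itgb4 1.47 and 2.08 TPM. Col17a1 was lowest at 0.34 and 0.17 TPM, from 17 and 21 reads, a count ratio of 1.23-fold (0.607 to 2.44). Its estimated effective length was 3525 bases in replicate 2 and 5489 in replicate 1. Dst and Itga6 stood far above Krt5, which had 3.4 and 0.8 TPM. Which cells carried them cannot be told from tissue RNA, so their ratios need not be those of basal keratinocytes.

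Regulators of epithelial fate had 1 of 12 at least 2-fold higher, beside 1.96% of all genes. This was the grainyhead factor gene Grhl1, with 12 and 8 reads and an interval of 0.854 to 6.41. Tfap2a, an AP-2 factor of ectoderm and neural crest, led at 8.75 TPM in replicate 2 and 7.36 TPM in replicate 1, ahead of Klf5 at 4.04 and 4.93 TPM and Klf4 at 2.99 and 2.05 TPM. Ehf was lowest at 0.06 and 0.03 TPM. Genes of epithelial proteases and trafficking had 1 of 7 at least 2-fold higher, beside 1.96% of all genes. This was the protease inhibitor gene Spint1 at 0.71 TPM in replicate 2 and 0.24 TPM in replicate 1. Spint2 had 22 and 20.1 TPM, Lsr 13 and 12.7 TPM and Cdh3 4.85 and 2.92 TPM. Tmprss2 was lowest, with 5 reads in replicate 2 and none in replicate 1.

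**Figure D4:**
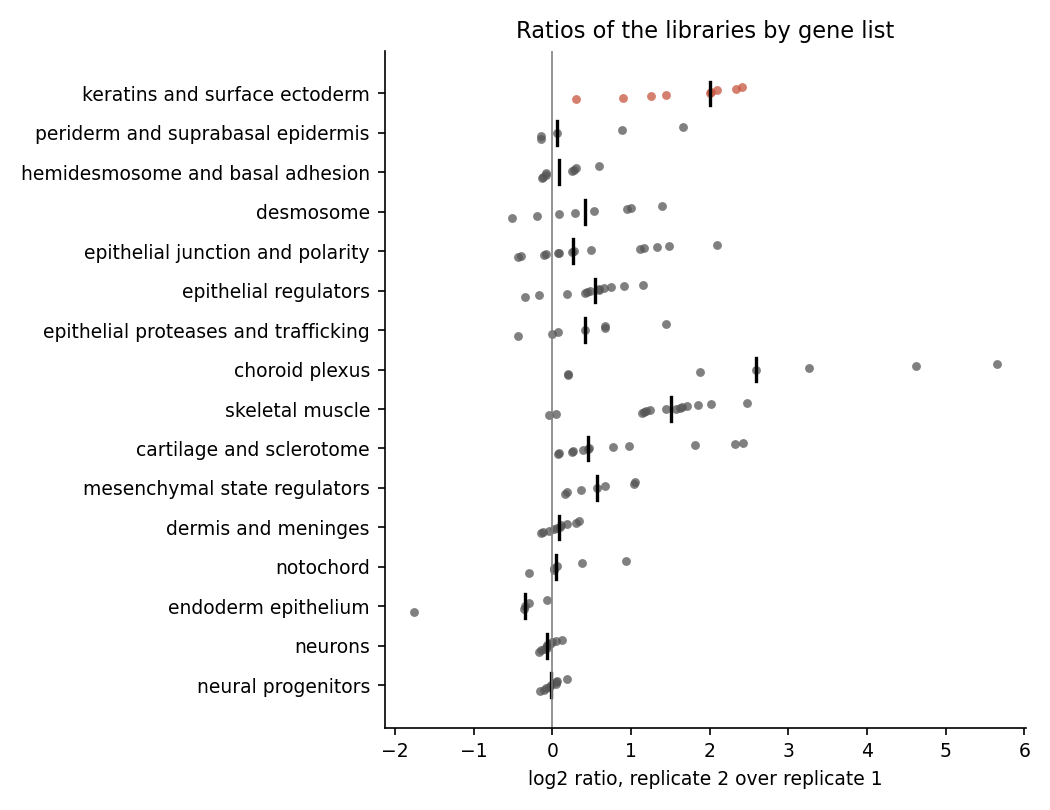
Log2 ratio of replicate 2 over replicate 1 for each gene whose mean count was at least 10, by gene list; points are genes and black bars are medians. The median of the keratins and surface ectoderm genes is 2.00, beside 2.59 for choroid plexus, 1.51 for skeletal muscle and values near 0 for neurons and neural progenitors.

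Markers of choroid plexus, skeletal muscle and sclerotome were also higher in replicate 2, and their part in the levels of the 10 genes was not tested. The choroid plexus, a secretory epithelium of the brain ventricles, had 5 of 7 genes at least 2-fold higher, beside 1.96% of all genes. Together the 7 reached 117 TPM in replicate 2, against 7.38 TPM in replicate 1. Ttr, the transthyretin gene, had 103 TPM in replicate 2 and 1.93 TPM in replicate 1, a ratio of 50.4-fold (38.3 to 69.1). Kcnj13 was 6-fold higher and Clic6 3.66-fold. Folr1, with 28 and 4 reads, was 9.59-fold higher, and Otx2, with 24 reads and 1 read, 24.7-fold (5.93 to 1495). Aqp1 had 4.17 TPM in replicate 2 and 3.5 TPM in replicate 1, and Kl, the lowest, 0.39 and 0.33 TPM.

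Skeletal muscle had 12 of 14 genes at least 2-fold higher, with a median log2 ratio of 1.51 and a summed level of 309 TPM in replicate 2 and 161 TPM in replicate 1. Myf5, Myog and Myod1, which encode myogenic factors, were 5.55-fold, 4.05-fold and 3.62-fold higher. Genes of muscle structure, Tnnt3, Tnnt1, Myh8, Myh3, Myl1, Mylpf, Des, Acta1 and Tnni1, lay between 3.26-fold and 2.21-fold. Actc1 had 81.2 TPM in replicate 2 and 75.3 TPM in replicate 1, and Ckm, the lowest, 0.76 and 0.73 TPM. Cartilage and sclerotome had 3 of 12 at least 2-fold higher, beside 1.96% of all genes. These were the sclerotome factor genes Pax1 at 5.35-fold, Nkx3-2 at 5.01-fold (21 and 6 reads) and Pax9 at 3.51-fold. The cartilage gene Col2a1 had 68.2 TPM in replicate 2 and 50.7 TPM in replicate 1, Col9a3 56.3 and 52.5 TPM and Cnmd 24.5 and 19.3 TPM.

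Mesenchymal regulators, several of which repress epithelial genes, had 2 of 7 at least 2-fold higher, beside 1.96% of all genes. These were Twist2 at 2.08-fold and Prrx1 at 2.05-fold. Zeb2 had 42.2 TPM in replicate 2 and 36.6 TPM in replicate 1, Zeb1 35.3 and 31 TPM and Snai1 9.9 and 7.35 TPM. Dermis and meninges had 0 of 10 past 2-fold, with Col3a1 at 328 TPM in replicate 2 and 315 TPM in replicate 1, Igf2 at 191 and 151 TPM, Col1a1 at 157 and 140.1 TPM and Dpt lowest at 0.86 and 0.65 TPM.

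Lists of other tissues that hold epithelial or keratin-positive cells had few 2-fold differences among genes past the count minimum. The notochord list had 0 of 6 past 2-fold. Foxj1 had 6.19 TPM in replicate 2 and 5.87 TPM in replicate 1, Chrd 3.87 and 4.57 TPM and Nog 2.62 and 1.94 TPM. Noto had no reads in either library. T, also of this list, had 1.08 TPM in replicate 2 and 0.36 TPM in replicate 1, from 14 and 11 reads. Its ratio was 1.91-fold, with an interval of 0.813 to 4.69 that includes no difference. Which cells carried the genes of this list cannot be told from tissue RNA, so their values cannot be assigned to notochord. Mesothelium had 1 of 5 genes past the count minimum, Wt1 at 3.02 TPM in replicate 2 and 1.88 TPM in replicate 1. With 1 such gene, the list cannot show whether mesothelium differed between the libraries. Its other genes were low, with Upk1b at 0.33 and 0.16 TPM, Msln at 0.21 and 0.2 TPM and Lrrn4 lowest at 0.15 and 0.09 TPM; Muc16 was not matched. Endoderm epithelium had 1 of 5 at least 2-fold lower, beside 1.43% of all genes. This was Afp, with 1.3 TPM in replicate 2 and 4.27 TPM in replicate 1. Cldn8 lay under the count minimum and went the other way, with 11 reads in replicate 2 and none in replicate 1. Sox17, also an endothelial gene, had 6.57 and 8.88 TPM, Apoa1 2.46 and 2.83 TPM, and the intestinal factor gene Cdx2 had no reads.

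Genes of the neural tube itself had ratios close to 1. None of 10 neuronal genes passed 2-fold, and their log2 ratios ran between -0.16 and 0.12. Nefl had 888 TPM in replicate 2 and 852 TPM in replicate 1, Stmn2 795 and 818 TPM, and Elavl3, the lowest, 42.9 and 46 TPM. None of 9 neural progenitor genes passed it either, with log2 ratios between -0.15 and 0.19. Vim had 743 TPM in replicate 2 and 725 TPM in replicate 1, Slc1a3 118 and 117 TPM, and Sox1, the lowest, 0.86 and 0.72 TPM.

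**Figure D5:**
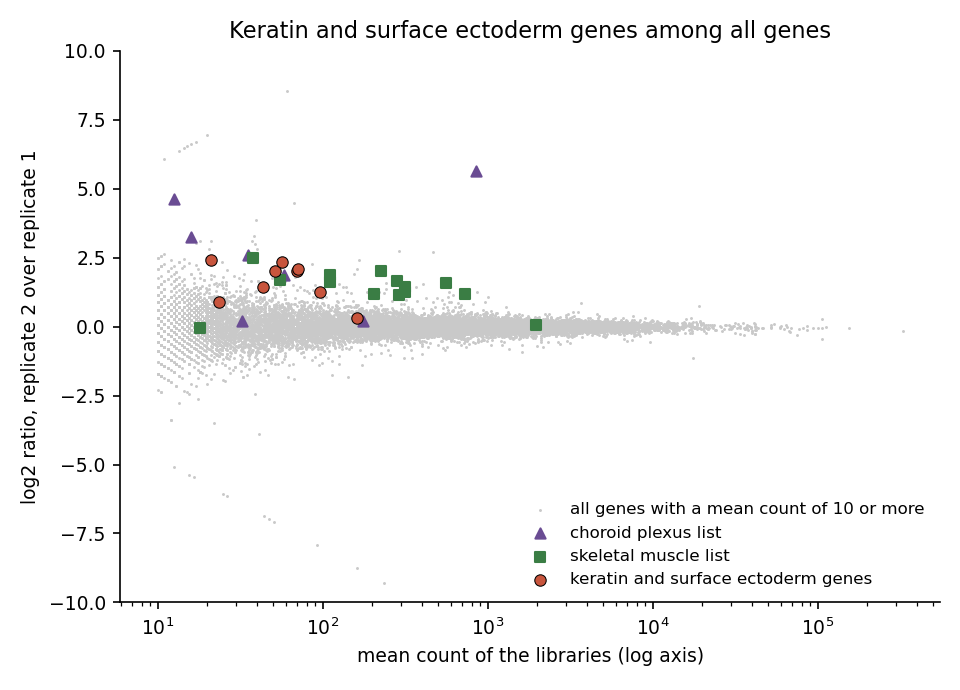
Log2 ratio of replicate 2 over replicate 1 against the mean count (log axis) of the 17428 genes whose mean count was at least 10; circles are the keratin and surface ectoderm genes, triangles the choroid plexus list and squares the skeletal muscle list. Ttr is the triangle at 5.66, and Perp is the circle at 0.30 nearest to the bulk of genes.

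Among all genes ranked by the ratio from the highest, Trp63 was number 35, Krt8 37, Krt14 56, Krt5 63 and Krt15 64 of 17428. Krt18 followed at 153, Epcam at 204, Krt19 at 431 and Perp at 2051. These ranks repeat the ratio with which the genes were chosen, so nothing is read from them. The rank of Trp63 rested on only 33 reads in replicate 2 and 9 in replicate 1. With a mean count of 50 or more, the 5 highest ratios were those of Gm3055, Ttr, Kcne2, Gm14434 and mt-Nd4l. Kcne2, a potassium channel subunit gene, had 5.53 TPM in replicate 2 and 0.23 TPM in replicate 1. Gm3055, Gm14434 and mt-Nd4l were uncertain in assignment, with posterior SDs in replicate 2 of 32.4, 87.4 and 291 reads.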

How the data were processed

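Total RNA was measured in 2 libraries of 1 group, and replicate numbers come from the labels. The deposited tables give, per the file headers, expected counts (estimated reads), TPM, FPKM, isoform percent of the gene's TPM, and a posterior mean and SD of each count. Spike-ins held 12.6% of TPM in replicate 2 and 13% in replicate 1. Build mm10 and annotation GENCODE M4 stand in the notes deposited by the authors; no source used here names the aligner, quantifier or strand handling, so antisense reads cannot be told apart. Symbols came from gene names matched on identifiers without version (42462 of 43346 genes), and coordinates from GENCODE M21 (GRCm38).

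Expected counts were rounded, scaled by TMM (edgeR 4.0.16, R 4.3.3) over genes whose mean count was at least 10, and log2 ratios used 0.5 added to each count. DESeq2 1.42.0 size factors were an alternative. Poisson and binomial intervals are exact, at 95%. With a single group no p-value was computed. Across genes the libraries differed by a chi-square of 8.31 per degree of freedom, so they are not 1 library deposited again. The scaling was tested on simulated data. Intervals came from SciPy 1.17.1, tables from pandas 2.3.3 (Python 3.11.15) and plots from matplotlib 3.10.9.

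The 10 genes and all lists were chosen with earlier results of these data known. Named were the 10 genes; of each list the 3 highest, the lowest and every gene past 2-fold and the count minimum; 5 further keratins of highest TPM; and the 5 highest ratios with a mean count of 50 or more. Other genes named for their role or values (Cdh1, Trp73, Esrp2, Krt28, Cldn8, T) were added afterwards. Of the junction list, 1 gene past 2-fold is counted but not reported here by name.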

Additional observations from a re-analysis of the deposited data

How the results depend on the processing

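All 80 log2 ratios of single genes, for 10 genes under 8 alternatives (DESeq2 size factors, total gene counts, spike-in counts, posterior mean counts, a pseudocount of 1, TPM, FPKM and no filter), stayed within the counting interval of the reported ratio. Esrp1, whose interval spans no difference, changed sign: its log2 ratio was 0.29 as reported, -0.09 with TPM and -0.13 with FPKM. No other gene changed sign under these 8. The number of genes at least 2-fold higher was 7 in each of these except TPM, where Krt19 made it 8. The number of genes detected in both libraries, 4 at 1 TPM, was 8 at 0.5 TPM, 1 at 2 TPM and 2 with FPKM in place of TPM; with 1 library left out it ranged from 4 to 8. The upstream share of Trp63 in replicate 1 was 37.8% with posterior means and 0% as reported; the cause was not tested. No paired analysis was possible because there is 1 group. Depth limits Trp63 and Esrp1 most.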
